A study of Mus musculus with 27 samples.

Results

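Inbred mouse strains carry deletions, duplications and regulatory variants that change the RNA of single genes. Expression and splicing of 7 such genes were examined in the fetal brain: Nnt, Glo1, Soat1, Gabra2, Wdfy1, Ide and Hc. They were chosen as genes with variants known among laboratory strains, by a rule that uses no measured value but was set with earlier results of these data known. The members were the rows of the gene table that carry these symbols, which made 8 of 55416 rows. The second row named Nnt, ENSMUSG00000116207, held 0 reads in every library, so 7 rows were analysed. The splice junction table held 24 junctions of these genes among 55670 different junctions. They belonged to 6 of the genes, and Hc had no junction in the table.

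The study sequenced poly-A RNA of whole fetal brain from 3 mouse strains at 3 gestation days, 12, 15 and 17 (d12, d15, d17), with the plug counted as day 1. The inbred strains were AKR/J and C57BL/6J, and Cav1-null is the label's short name for B6.Cg-Cav1tm1Mls/J, a congenic line that lacks the caveolin gene Cav1. There were 9 groups, 3 libraries in each and 27 in all, every fetus was labelled female, and no group received an agent. Whether fetuses of a group came from separate litters was not stated, so p-values measure the spread between these libraries.

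The 7 genes act in separate pathways. Nnt makes the NADPH that mitochondria use against peroxides, Glo1 removes methylglyoxal, Soat1 (also called ACAT1) esterifies cholesterol for storage, and Ide degrades insulin and amyloid beta. Gabra2 encodes a subunit of the GABA-A receptor, which is abundant in forebrain neurons. Wdfy1 encodes an endosomal adaptor of Toll-like receptor signalling, and Hc encodes complement component C5. The GRCm39 reference used by the study was built from C57BL/6J, a strain whose Nnt lacks several exons, and reads from sequence that is absent from that reference could not be counted. Variants known as background include a duplicated segment that holds Glo1 in some strains, a variant of Soat1 that affects exon 2 in AKR/J, and an intronic change of Gabra2 in C57BL/6J.

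Libraries held 26363697 to 39759702 reads on genes, with a median of 29700746, and 2792947 to 4697386 reads on junctions. Levels are given as CPM, read counts scaled to a common library size with TMM factors. Cav1 set the Cav1-null libraries apart, with at most 0.509 CPM in each, but does not tell AKR/J from C57BL/6J. AKR/J libraries held 9.25 to 34.2 CPM of it, and C57BL/6J libraries 10.4 to 39.9. The 9 libraries labelled C57BL/6J differed among themselves. Of 29 genes with at least 1 CPM in all AKR/J libraries and under 0.15 CPM in all Cav1-null libraries, 25 of them pseudogenes, 28 were at 0.5 CPM or more in some but not all C57BL/6J libraries, 1 was in none and 0 were in all 9. Each C57BL/6J library held between 7 and 18 of them. The comparisons keep the labels, so each C57BL/6J mean averages libraries that differ in this way, and whether they share a genetic background was not tested. AKR/J against Cav1-null is the comparison without them and is given for each of the 7 genes. On d12, AKR/J libraries also held more RNA of blood and yolk sac genes. Summed over 9 erythroid genes, it was 33231 to 197968 CPM, against 1793 to 5020 CPM in the other strains on that day. The 12 yolk sac genes summed to 36.9 to 1752 CPM, against 8.41 to 20.9 CPM, while the 6 neuronal markers were all present in every group but lower in AKR/J on d12, at 1673 to 2135 CPM against 3187 to 5327 CPM. For the 10 trophoblast genes the sum was 6.75 to 189 CPM, against 1.28 to 81.0 CPM in the other strains on d12, and for the 8 decidua genes 67.1 to 686 CPM, against 24.2 to 91.5 CPM. Both of these ranges overlapped with those of the other strains. The 6 radial glia markers summed to 1990 to 4142 CPM in AKR/J on d12, against 1702 to 2173 CPM for C57BL/6J and 1425 to 1800 CPM for Cav1-null. The erythroid sum also differed on later days. On d15 it was 2011 to 3070 CPM in AKR/J libraries and 2594 to 3235 CPM in Cav1-null libraries, against 761 to 890 CPM for C57BL/6J, and on d17 it was 3462 to 18625 CPM in AKR/J libraries, against 498 to 2553 CPM in the other strains. The neuronal sum on d15 was lower in AKR/J (3632 to 5289 CPM) and Cav1-null (4934 to 5115 CPM) than in C57BL/6J (5894 to 6676 CPM). On d17 it was slightly lower in AKR/J (5216 to 5372 CPM) than in Cav1-null (5391 to 5578 CPM), and C57BL/6J overlapped with both (4863 to 6555 CPM). The part of these markers in the strain differences was not tested. In such bulk RNA, fewer cells of a type and less RNA per cell cannot be told apart.

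Over the 3 days, Glo1 and Wdfy1 were higher and Ide was lower in AKR/J than in either other strain. Soat1 was lower in both AKR/J and Cav1-null than in C57BL/6J, and Ide was higher in Cav1-null than in C57BL/6J. Nnt, Gabra2 and Hc did not pass the test between any pair of strains as a mean over the days, though Nnt and Gabra2 did against C57BL/6J under some other settings, given with each gene. Gabra2 also passed in AKR/J against Cav1-null when later AKR/J days were set against earlier days, given with that gene. All 7 genes passed the filter on low counts. A gene was called at an adjusted p under 0.05 in the quasi-likelihood test of edgeR, with Benjamini-Hochberg adjustment over all genes tested, and every adjusted p of a gene or junction fold change given here is of that kind.

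For AKR/J against C57BL/6J, 4 of 7 genes were called on the mean of the 3 day differences, where 47.7% of all 22353 genes tested were called. For Cav1-null against C57BL/6J it was 3 of 7 beside 45% of all genes, and for AKR/J against Cav1-null 3 of 7 beside 30.3%. These shares lie near the background, so the counts set the genes apart from no other group of genes, and the genes are described one by one. Of the genes called, 3, 0 and 3 changed by at least 1.5-fold in these comparisons, where 29%, 20.5% and 15.2% of all genes did. On d12, d15 and d17, the libraries of the groups did not overlap for 3, 5 and 4 of 7 genes in AKR/J against C57BL/6J, where this held for 45.3%, 49% and 26.2% of all genes. It was 2, 4 and 1 genes in Cav1-null against C57BL/6J (28.6%, 60.6% and 12.4%) and 3, 4 and 5 in AKR/J against Cav1-null (37.7%, 37.7% and 30.3%). The comparisons share libraries, so they are not independent of each other.

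**Figure D1:**
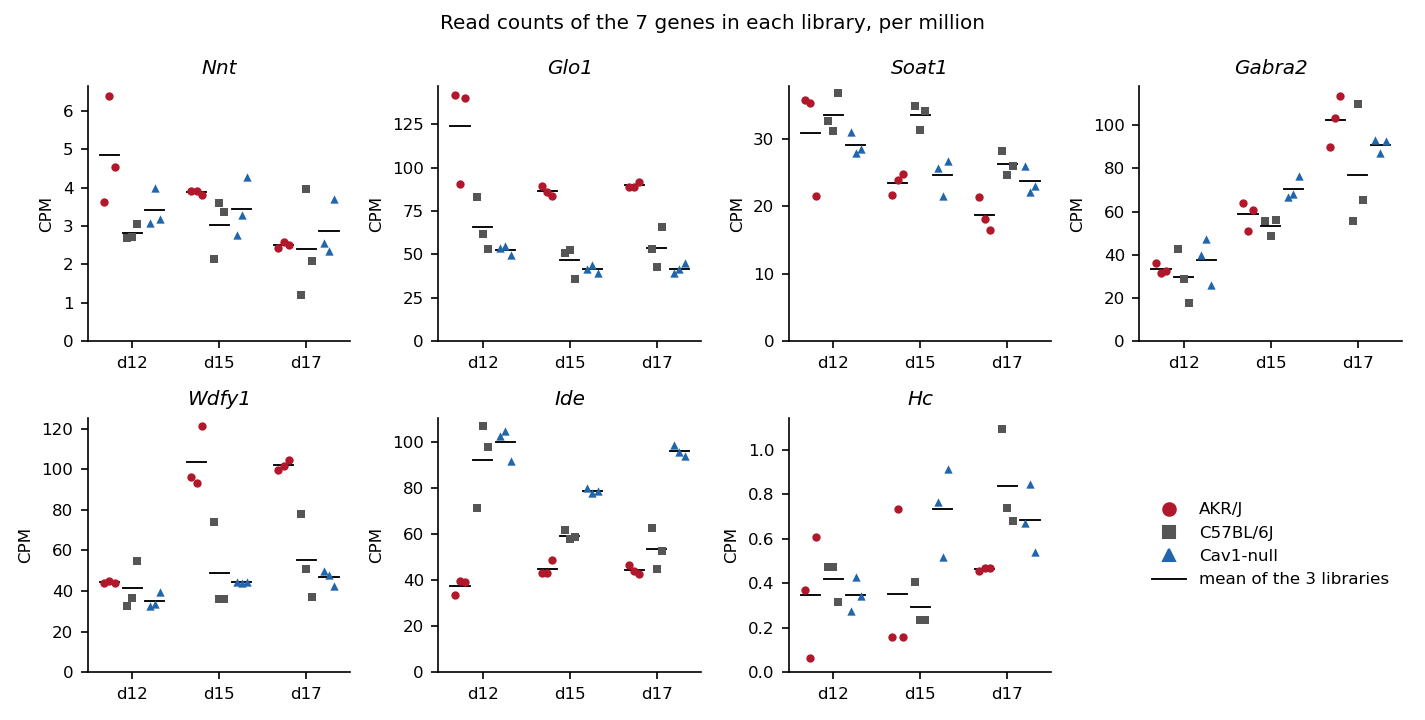
Level in CPM (vertical axis, from 0) of each of the 7 genes in every library, by day of gestation. Each point is 1 library, colour and shape give the strain, and lines mark the mean of 3 libraries. Glo1 of AKR/J lies above all other libraries, and Ide of AKR/J lies below all Cav1-null libraries.

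Glo1 (17:30803910-30845845, minus strand, all positions in GRCm39) encodes glyoxalase 1, the first enzyme of methylglyoxal removal. In AKR/J its level was 142, 90.7 and 140.1 CPM in the 3 libraries of d12, 89.3, 85.8 and 83.8 CPM on d15, and 88.8, 88.9 and 91.8 CPM on d17. C57BL/6J libraries were at 82.8, 61.4 and 53.3 CPM, then 50.9, 52.4 and 36.0 CPM, then 52.8, 42.6 and 65.7 CPM. Cav1-null libraries were at 53.7, 54.9 and 49.6 CPM, then 41.5, 43.7 and 39.3 CPM, then 39.0, 41.4 and 44.9 CPM. All 9 AKR/J libraries were above all 18 others. The strain means differed 1.81-fold from C57BL/6J and 2.21-fold from Cav1-null. The log2 fold change was 0.86 (SE 0.12, adjusted p = 5.21e-05) and 1.13 (SE 0.08, adjusted p = 2.70e-09). Against Cav1-null the difference was called on each day, at 1.28, 1.03 and 1.10 on the log2 scale. Against C57BL/6J it was called on d12 (0.93, adjusted p = 0.00174) and d15 (0.90, adjusted p = 0.0154), while the d15 call was lost without AKR/J d15 replicate 1 (adjusted p = 0.0618) or 2 (0.0513), or C57BL/6J d15 replicate 3 (0.0664).

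Between Cav1-null and C57BL/6J the libraries overlapped on every day, and the fitted difference of Glo1 was -0.28 (SE 0.10, adjusted p = 0.0350). That call was lost when any 1 of 11 of the 18 libraries was left out, under RLE scaling (adjusted p = 0.0583), with library sizes alone (0.194), with at least 10 reads in every library (0.0787), without d12 (0.147) and in DESeq2 (0.0595). Within C57BL/6J, the library with the lowest Glo1 on each day (d12 replicate 3, d15 replicate 3, d17 replicate 2) was also the lowest on that day in Dnah8 and the only one with 0 reads of Gm10503. Dnah8 encodes an axonemal dynein whose gene overlaps Glo1, and its level in those libraries was 2.70, 2.83 and 2.01 CPM, against 5.04 to 10.1 CPM in the other C57BL/6J libraries. Gm10503, 293 kb from Glo1, was at 7.92 to 12.8 CPM in those others. AKR/J libraries held 5.61 to 15.0 CPM of it, and no Cav1-null library held over 0.170 CPM. The lower 3 C57BL/6J libraries thus sat within or near the range of Cav1-null for these genes.

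**Figure D2:**
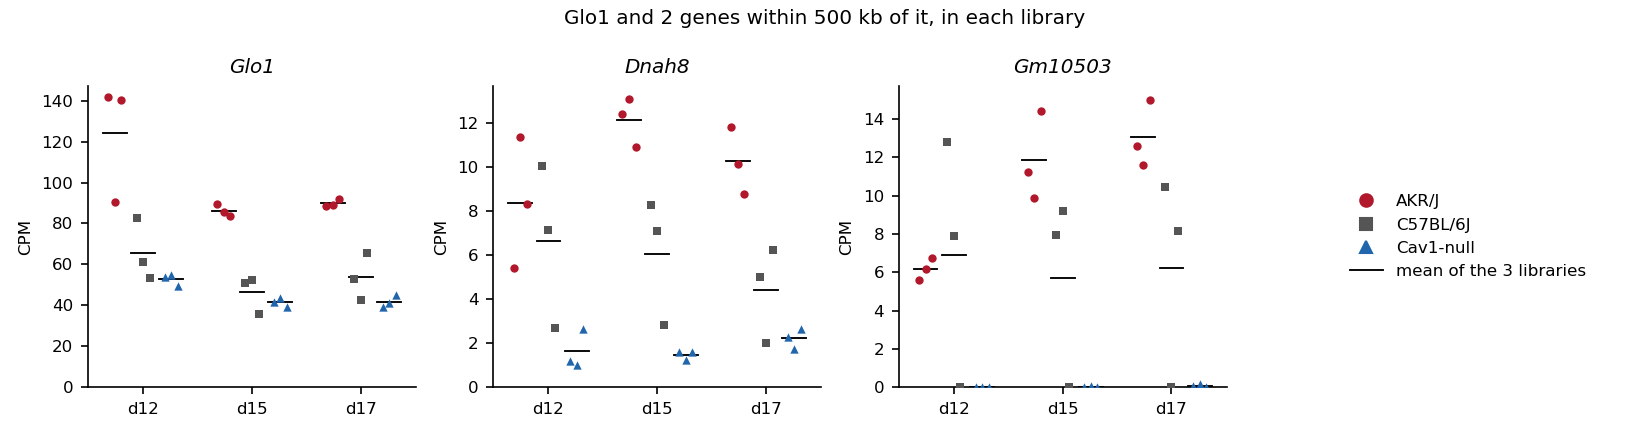
Level in CPM (vertical axes, from 0, each with its own scale) of Glo1, Dnah8 and Gm10503 in every library by day. Points are libraries and lines are means of 3. On each day 1 C57BL/6J library has 0 reads of Gm10503 and the lowest Dnah8 and Glo1 of its group.

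Of the genes within 500 kb of Glo1, 17 were tested for AKR/J against Cav1-null, and 12 were called, 12 higher and 0 lower in AKR/J (30.3% of all genes called in either direction), with a median log2 fold change of 1.21. Against C57BL/6J it was 11 of 17, 8 higher and 3 lower, beside 47.7% of all genes. In Cav1-null against C57BL/6J, 9 of 15 were called and 9 were lower, beside 45% of all genes. The largest were Gm10503 (-8.26, adjusted p = 0.00169), Gm9937 (-6.01, adjusted p = 0.00773), Gm41561 (-5.22, adjusted p = 0.000864) and Gm50242 (-3.36, adjusted p = 0.00765), each at or near 0 in Cav1-null, so that the fitted size depends on the prior count. Dnah8 was higher in AKR/J than in C57BL/6J by 0.86 (adjusted p = 0.0137) and lower in Cav1-null than in C57BL/6J by a log2 fold change of -1.67 (adjusted p = 0.000350).

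The Glo1 pseudogene Glo1-ps lies on chromosome 2 and shares sequence with Glo1, so reads may be split between them and the count of Glo1 is uncertain to that extent. Glo1-ps held 1.74 to 5.29 CPM in AKR/J, and in Cav1-null its level was 0.0265 to 0.184 CPM. In C57BL/6J it was at 0.127, 0.0885 and 0.0617 CPM in the same 3 libraries as above and at 0.497 to 1.71 CPM in the rest. Over the 27 libraries, its log2(CPM + 1) followed that of Glo1 at r = 0.95 among 23307 genes compared, after Rps18-ps5 (r = 0.97) and before Rpl17-ps5 (r = 0.94), which are pseudogenes on chromosomes 13 and 5. These r values are across libraries that fall into 3 strains. The 1 Glo1 junction of the table, 17:30812049-30813088, joins exons outside the canonical transcript and held 25 to 122 reads in AKR/J, against 9 to 26 in C57BL/6J libraries and 5 to 21 in those of Cav1-null. Its log2 fold change was 1.89 (adjusted p = 0.000950) and 2.43 (adjusted p = 0.000159) for AKR/J against C57BL/6J and Cav1-null, respectively, and the former was not called without replicate number 1 (adjusted p = 0.0555).

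Ide (19:37245688-37340729, minus strand) encodes insulin-degrading enzyme, a zinc protease. In AKR/J its level was 33.5, 39.8 and 39.0 CPM on d12, 43.0, 42.9 and 48.7 CPM on d15, and 46.5, 44.0 and 42.9 CPM on d17. Libraries of C57BL/6J held 71.4, 107 and 97.7 CPM, then 61.5, 57.6 and 58.5 CPM, then 62.7, 44.7 and 52.4 CPM. Those of Cav1-null held 103, 105 and 91.6 CPM, then 79.7, 77.9 and 78.6 CPM, then 98.6, 95.7 and 93.8 CPM. AKR/J was the lowest strain and Cav1-null the highest, and only AKR/J and C57BL/6J on d17, and C57BL/6J and Cav1-null on d12, overlapped on a day. The AKR/J mean was 0.462 of that of Cav1-null (log2 fold change -1.11, SE 0.06, adjusted p = 4.97e-11) and 0.620 of that of C57BL/6J (-0.65, SE 0.09, adjusted p = 4.66e-05). Cav1-null was above C57BL/6J by 0.46 (SE 0.08, adjusted p = 0.000218).

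The distance of Ide in AKR/J from C57BL/6J narrowed over the days, from -1.29 on d12 (adjusted p = 6.64e-05) to a d17 difference that did not pass. The change of the difference was 1.03 (SE 0.21, adjusted p = 0.0171), where 10.4% of all genes were called for such a change. It was lost without any 1 of 4 libraries: AKR/J d12 replicate 3 (adjusted p = 0.0518), AKR/J d17 replicate 1 (0.0635) or 2 (0.0523), or C57BL/6J d12 replicate 2 (0.0708). Within C57BL/6J, Ide fell by 0.75 on the log2 scale from d12 to d17 (adjusted p = 0.00905), while in AKR/J it changed by 0.25 (adjusted p = 0.122). In a fit of the d15 and d17 libraries alone, chosen after seeing the data, AKR/J against C57BL/6J was -0.31 (adjusted p = 0.0100), against -0.65 over 3 days. AKR/J against Cav1-null was called on each day, at -1.37, -0.84 and -1.12, and without d12 it was -0.97. Cav1-null against C57BL/6J was called on d15 (0.42, adjusted p = 0.0214) and on d17 (0.85, adjusted p = 0.0412), when only 0.0224% of all genes, 5 in number, were called. The d15 call was lost without C57BL/6J d15 replicate 2 (adjusted p = 0.0556) or 3 (0.0519) or Cav1-null d15 replicate 2 (0.0528). The d17 call was lost when any 1 of 12 of the 18 libraries was left out, with adjusted p from 0.0528 to 0.268, in a fit of the 6 libraries of that day (0.382) and with a replicate block (0.146).

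All 5 Ide junctions had negative fold changes in AKR/J against both other strains, like the gene. The median log2 fold change of all junctions was itself -0.33 against C57BL/6J and -0.06 against Cav1-null. In each of these comparisons 3 of 5 were called, beside 27.7% and 6.88% of all junctions. The junction of exons 1 and 2 (19:37308012-37339912) held 10 to 43 reads in AKR/J, against 45 to 130 in C57BL/6J libraries and 36 to 122 in those of Cav1-null, with log2 fold changes of -1.12 (adjusted p = 0.00245) and -1.33 (adjusted p = 0.00150) for AKR/J against C57BL/6J and Cav1-null. Neither was called without replicate number 1 (adjusted p = 0.0722 and 0.0777), nor the second without number 3 (0.0542). The junction 19:37265608-37268068 was called against both, at -1.02 (adjusted p = 0.00154) and -1.15 (adjusted p = 0.000350), and the first call was lost without number 1 (0.0581). The junction 19:37268214-37273281 was called against C57BL/6J (-0.96, adjusted p = 0.00163), save without number 1 (0.0545). The junction 19:37275574-37281292 was called against Cav1-null (-1.23, adjusted p = 0.0158), save without number 2 (0.122) or 3 (0.165). None of the 4 Ide junctions tested for their share of the gene's junction reads passed in any comparison (adjusted p from 0.0743 to 0.956, exact permutation test), so no unequal change along the gene was detected at this depth. In the 500 kb around Ide, Cpeb3, a translational regulator, was lower in AKR/J than in C57BL/6J (-0.87, adjusted p = 0.000328). Btaf1, a regulator of TATA-binding protein, was higher in Cav1-null (0.64, adjusted p = 6.13e-05). The pseudogene Rpl10-ps6 lies inside Ide and was called in Cav1-null against C57BL/6J (1.47, adjusted p = 0.00315) at under 0.5 CPM. Hhex, a homeobox gene, was lower in Cav1-null than in C57BL/6J (-0.52, adjusted p = 0.0369). Of the genes tested, 3 of 11, 5 of 11 and 4 of 14 were called in the 3 comparisons, beside 47.7%, 45% and 30.3% of all genes. 5830417I10Rik (r = 0.91), Mri1 (r = 0.86) and Gm43054 (r = 0.86) had the patterns most like Ide over the libraries, and among the 7 genes Glo1 was the least like it (r = -0.71).

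Wdfy1 (1:79679017-79753860, minus strand) encodes a protein with a FYVE zinc finger and WD40 repeats. In AKR/J its level was 43.8, 45.1 and 44.0 CPM on d12, 96.3, 93.3 and 121 CPM on d15, and 99.8, 101 and 104 CPM on d17. In Cav1-null it was 32.5, 33.9 and 39.6 CPM, then 44.4, 44.1 and 44.6 CPM, then 49.8, 47.8 and 42.7 CPM. In C57BL/6J it was 32.6, 36.5 and 54.7 CPM, then 74.2, 35.9 and 36.3 CPM, then 78.0, 50.7 and 37.1 CPM. AKR/J stood above Cav1-null in every library of each day. In C57BL/6J, 1 library a day stood above the other 2, and the group overlapped with AKR/J on d12 only. AKR/J exceeded Cav1-null by 0.89 (SE 0.06, adjusted p = 6.09e-09) and C57BL/6J by 0.69 (SE 0.16, adjusted p = 0.00186). Cav1-null against C57BL/6J was -0.20 (adjusted p = 0.338), and -0.043 (adjusted p = 0.819) without C57BL/6J d15 replicate 1.

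The excess of Wdfy1 in AKR/J over Cav1-null was 1.20 on d15 (adjusted p = 8.35e-07) and 1.11 on d17 (adjusted p = 2.07e-06). On d12 it was 0.37 (adjusted p = 0.0142), a direction that turned to -0.04 with library sizes alone. The d12 call was lost without Cav1-null d12 replicate 1 (adjusted p = 0.0824) or 2 (0.0613), without a filter on low counts (0.118), and in fits of the 6 libraries of that day (0.135) or of all 27 libraries (0.311). The change of the difference from d12 to d17 was 0.75 (SE 0.16, adjusted p = 0.00419, with 15.4% of all genes called), and 0.79 (adjusted p = 0.123) in the model of all 27 libraries. Against C57BL/6J, Wdfy1 was called on d15 (1.09, adjusted p = 0.0207), a call lost without AKR/J d15 replicate 1 (0.0633) or 2 (0.0544) or C57BL/6J d15 replicate 2 (0.0766) or 3 (0.0827). Wdfy1 rose in AKR/J by 1.20 from d12 to d17 (adjusted p = 3.64e-05) and in Cav1-null by 0.40 (adjusted p = 0.00483), the latter not called in the model of all 27 libraries (adjusted p = 0.214).

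A Wdfy1 junction, 1:79699986-79702361, is annotated but ends in an upstream exon outside the canonical transcript and enters exon 4. It was read in no AKR/J library. The sequence across it is shown because its absence marks that strain, with the upstream exon in lower case and the first bases of exon 4 in capitals.
Wdfy1 junction into exon 4: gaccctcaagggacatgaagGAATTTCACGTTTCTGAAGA
It held 0 reads in all 9 AKR/J libraries. C57BL/6J libraries held 13, 22 and 5 reads on d12, 7, 26 and 12 on d15, and 5, 19 and 15 on d17. In Cav1-null it held 8, 13 and 32, then 16, 14 and 17, then 17, 8 and 17 reads. Every library of both other strains thus held the junction that AKR/J lacked. With a floor of 3 reads over the 9 libraries, the junction was at least 36.3-fold higher in C57BL/6J and at least 43.8-fold higher in Cav1-null. It was called in both comparisons (adjusted p = 0.00159 and 0.000365). The C57BL/6J call was at an adjusted p of 0.0538 without replicate number 1. In C57BL/6J, the library with the most Wdfy1 reads on a day (d12 replicate 3, d15 replicate 1, d17 replicate 1) had the fewest reads of this junction, 5, 7 and 5.

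**Figure D3:**
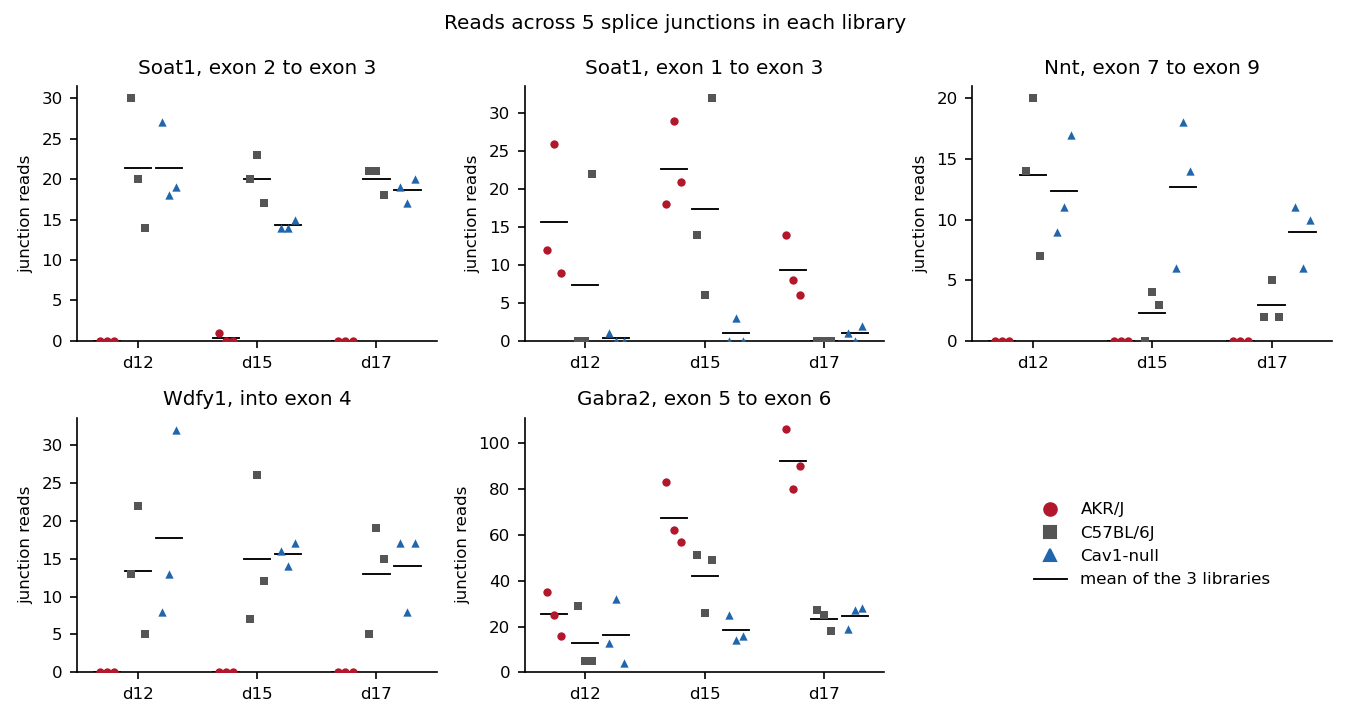
Reads per library (vertical axes, from 0) of junctions of Soat1, Nnt, Wdfy1 and Gabra2, by strain and day, 1 point per library. The Soat1 junction of exons 2 and 3 holds 1 read in 1 AKR/J library and 0 in the other 8, and the Nnt and Wdfy1 junctions hold 0 in all 9, while the Gabra2 junction is highest in AKR/J.

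Soat1 (1:156252095-156303864, minus strand) encodes sterol O-acyltransferase 1. Its exon 2, 118 bases in the canonical transcript ENSMUST00000189661, holds the start codon. The coding part of that exon (1:156294251-156294338, 88 bases) is printed because its use separated the strains, with the start codon in capitals.
Soat1 exon 2, coding part: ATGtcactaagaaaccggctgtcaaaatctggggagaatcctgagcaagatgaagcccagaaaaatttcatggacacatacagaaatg
The pair of junctions that enter exon 3 differ by their first 20 bases, the end of exon 2 or of exon 1 in lower case, and share the start of exon 3 in capitals.
Soat1 exon 2 to exon 3: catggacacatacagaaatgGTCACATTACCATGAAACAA
Soat1 exon 1 to exon 3: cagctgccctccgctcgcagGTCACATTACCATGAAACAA

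AKR/J brains nearly lacked the junction that includes exon 2 (1:156285575-156294250). It held 1 read in AKR/J d15 replicate 1 and 0 in the other 8 AKR/J libraries. It held 30, 20 and 14, then 20, 23 and 17, then 21, 21 and 18 reads in C57BL/6J on d12, d15 and d17. In Cav1-null it held 27, 18 and 19, then 14, 14 and 15, then 19, 17 and 20 reads. The groups did not overlap, and the ratio of depth-scaled reads was 161 for C57BL/6J over AKR/J (95% exact interval 28.6 to 6413, from 184 against 1 read). For Cav1-null over AKR/J it was 151 (26.7 to 5992, from 163 against 1). These intervals cover counting error only. Junction reads cannot tell an exon that is left out in splicing from one that is missing from the genome.

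The junction that skips exon 2 (1:156285575-156301717) held 12, 26 and 9 reads in AKR/J on d12, 18, 29 and 21 on d15, and 14, 8 and 6 on d17. Cav1-null libraries held 0 to 3 reads of it. C57BL/6J libraries held 0, 0 and 22 reads on d12, 14, 6 and 32 on d15, and 0, 0 and 0 on d17. C57BL/6J was thus split, with 4 libraries that held both junctions and 5 that held only the junction with exon 2. Of the reads on both junctions, 94.7% to 100% skipped exon 2 in AKR/J and 0% to 17.6% in Cav1-null. In the 4 mixed C57BL/6J libraries the skipped share was 61.1% (d12 replicate 3, exact 95% interval 43.5% to 76.9%), 41.2% (d15 replicate 1, 24.6% to 59.3%), 20.7% (d15 replicate 2, 7.99% to 39.7%) and 65.3% (d15 replicate 3, 50.4% to 78.3%). The mixed libraries fall between the ranges of AKR/J and Cav1-null, save that the lowest has an interval that reaches into that of Cav1-null.

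As a share of all Soat1 junction reads, the junction with exon 2 made 0.0975% ± 0.292 in AKR/J, against 15.0% ± 5.87 in C57BL/6J and 20.01% ± 5.51 in Cav1-null (SD, n = 9). AKR/J differed from both (adjusted p = 0.00165 each, exact two-sided permutation test within days, adjusted over 33 tests of shares). The unadjusted p was 0.00025, the smallest that 8000 assignments allow. The skipping junction made 13.4% ± 3.48, 4.33% ± 6.01 and 0.9498% ± 1.36, with AKR/J higher than C57BL/6J (adjusted p = 0.00516) and Cav1-null (adjusted p = 0.00165, both exact permutation tests). The log2 fold change of the skipping junction was 2.72 (adjusted p = 0.0349) against C57BL/6J, not called without replicate number 1 (0.207) or 2 (0.178), and 4.25 (adjusted p = 0.000607) against Cav1-null, not called without number 1 (0.0544). With a replicate number left out, the exact tests of shares had 216 assignments and a smallest adjusted p of 0.0382, 0.0509 and 0.0437 without number 1, 2 and 3. Without number 2, 6 of 33 tests were at the smallest p and no share passed. For those 6 the loss says nothing about stability. The share of the skipping junction against C57BL/6J was above that p without number 2 (exact permutation test, adjusted p = 0.127). Without number 1, the share of the skipping junction was not called against C57BL/6J (adjusted p = 0.0679).

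The level of Soat1 as a whole differed less than its exon use. In AKR/J it was 35.8, 35.4 and 21.6 CPM on d12, 21.7, 24.0 and 24.8 CPM on d15, and 21.3, 18.1 and 16.6 CPM on d17. The C57BL/6J libraries had 32.7, 31.3 and 36.9 CPM, then 35.0, 31.4 and 34.2 CPM, then 28.2, 24.7 and 26.1 CPM. The Cav1-null libraries had 31.1, 27.9 and 28.6 CPM, then 25.7, 21.6 and 26.7 CPM, then 26.1, 22.1 and 23.1 CPM. AKR/J lay below C57BL/6J in every library of d15 and d17 but not on d12. The log2 fold change was -0.37 (SE 0.10, adjusted p = 0.00443) for AKR/J and -0.26 (SE 0.06, adjusted p = 0.00377) for Cav1-null, both against C57BL/6J, the latter -0.15 (adjusted p = 0.0945) with library sizes alone. AKR/J against Cav1-null was -0.11 (adjusted p = 0.431). Soat1 fell by 0.73 on the log2 scale in AKR/J from d12 to d17 (adjusted p = 0.0122), a call lost without AKR/J d17 replicate 2 (0.0518) or 3 (0.0620) and with library sizes alone (-0.39, adjusted p = 0.326).

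The junction of Soat1 exons 13 and 14 held fewer reads in Cav1-null than in C57BL/6J (log2 fold change -0.85, adjusted p = 0.00486), a call lost without replicate number 1 (adjusted p = 0.0745) or 3 (0.0978). Its share of Soat1 junction reads was 17.1% ± 2.33 for Cav1-null and 21.1% ± 4.19 for C57BL/6J (SD, n = 9, exact permutation test, adjusted p = 0.0225), which was lost without number 2 (0.141) or 3 (0.139). Of the genes within 500 kb of Soat1, 11 of 22, 10 of 21 and 7 of 22 were called in the comparisons of AKR/J with C57BL/6J, Cav1-null with C57BL/6J and AKR/J with Cav1-null, near the 47.7%, 45% and 30.3% of all genes. Gm2000 was the largest (1.97, adjusted p = 6.63e-05, AKR/J against C57BL/6J), and Angptl1, an angiopoietin-like gene, was higher in the same comparison (1.13, adjusted p = 0.0217), as was 9430034N14Rik (1.04, adjusted p = 0.00553). Gm38043 was higher in Cav1-null than in C57BL/6J (1.51, adjusted p = 7.68e-05). Nup155, a nucleoporin (r = 0.84), Ncapd2, a condensin subunit (r = 0.83), and Pigv (r = 0.82) had the patterns most like that of Soat1.

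Nnt (13:119470859-119566380, minus strand) encodes nicotinamide nucleotide transhydrogenase. Its count covers the exons present in the reference, and it was low in all strains, at 36 to 194 reads. In AKR/J it was 3.63, 6.39 and 4.52 CPM on d12, 3.90, 3.91 and 3.81 CPM on d15, and 2.43, 2.57 and 2.51 CPM on d17. C57BL/6J gave 2.68, 2.71 and 3.05 CPM, then 2.13, 3.60 and 3.36 CPM, then 1.19, 3.95 and 2.08 CPM. Cav1-null gave 3.07, 3.98 and 3.18 CPM, then 2.76, 3.29 and 4.27 CPM, then 2.54, 2.34 and 3.69 CPM. AKR/J stood above C57BL/6J on d12 and d15 and overlapped with it on d17. On the mean over days the difference was 0.40 (SE 0.20, adjusted p = 0.103), and it was called without C57BL/6J d17 replicate 2 (0.64, adjusted p = 0.00588) and with at least 10 reads in every library (0.47, adjusted p = 0.0485). AKR/J against Cav1-null was 0.17 (adjusted p = 0.437) and Cav1-null against C57BL/6J 0.24 (adjusted p = 0.331), which became 0.43 (adjusted p = 0.0420) without that same library. In AKR/J, Nnt fell by 0.95 on the log2 scale from d12 to d17 (adjusted p = 0.0144), lost without any 1 of the 3 AKR/J d17 libraries (adjusted p from 0.0514 to 0.0546), without a filter (0.0561) and with library sizes alone (0.191).

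Nnt exons are numbered here in the canonical transcript of the reference, which has 17 exons and leaves out those that C57BL/6J lacks. A junction of Nnt that joins exon 7 to exon 9 was absent from AKR/J. It skips exon 8, of 146 bases, which is present in the reference and so is not one of the missing exons. Its sequence is shown with the end of exon 7 in lower case and the start of exon 9 in capitals (intron 13:119509128-119518211).
Nnt exon 7 to exon 9: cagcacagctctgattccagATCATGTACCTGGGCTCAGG
All 9 AKR/J libraries held 0 reads of it. C57BL/6J held 14, 20 and 7 on d12, 0, 4 and 3 on d15, and 2, 5 and 2 on d17. Cav1-null held 9, 11 and 17, then 6, 18 and 14, then 11, 6 and 10. With the floor of 3 reads over 9 libraries it was at least 16.7-fold higher in C57BL/6J (57 reads) and at least 31.5-fold higher in Cav1-null (102 reads) than in AKR/J. Its share of Nnt junction reads was 0% in AKR/J, 5.83% ± 5.34 for C57BL/6J and 13.7% ± 4.46 for Cav1-null (SD, n = 9). All 3 strains differed from each other in it (exact permutation test, adjusted p = 0.00471 for AKR/J against C57BL/6J, 0.00165 against Cav1-null, and 0.0225 for Cav1-null against C57BL/6J). The last of these calls was lost without replicate number 1 (adjusted p = 0.153) or 3 (0.267), and the first without number 2 (0.0917) or 3 (0.115), all by the exact permutation test. The fold change of this junction in Cav1-null against C57BL/6J was 1.32 (adjusted p = 0.0316) and was not called when any replicate number was left out (0.0740 to 0.275).

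The other Nnt junctions were read in AKR/J too. The junction of exons 4 and 5 held 21 to 66 reads in AKR/J libraries, 20 to 81 in C57BL/6J libraries and 18 to 39 in Cav1-null libraries, and that of exons 5 and 6 held 11 to 61, 18 to 73 and 16 to 34. The former was lower in Cav1-null than in C57BL/6J (-0.55, adjusted p = 0.0201) and higher in AKR/J than in Cav1-null (0.67, adjusted p = 0.0281). Neither call held when any replicate number was left out (adjusted p from 0.0778 to 0.182 and from 0.0791 to 0.271), and the first was -0.30 (adjusted p = 0.155) when scaled by the junction table itself. Of 5 genes tested within 500 kb, Tmem267 (0.41, adjusted p = 0.0172) and Paip1, a poly(A)-binding protein partner that overlaps Nnt (0.25, adjusted p = 0.0228), were higher in AKR/J than in C57BL/6J, and 4833420G17Rik was higher in Cav1-null (0.23, adjusted p = 0.00690). The genes most like Nnt over the libraries were Gm15834 (r = 0.83), 5031425E22Rik (r = 0.80) and Steap2, a metalloreductase (r = 0.80).

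Gabra2 (5:71114573-71253662, minus strand) rose with age in all 3 strains. In AKR/J it was 36.1, 31.5 and 32.3 CPM on d12, 64.2, 51.1 and 60.6 CPM on d15, and 90.1, 103 and 113 CPM on d17. In C57BL/6J it was 42.8, 28.5 and 17.4 CPM, then 55.5, 48.7 and 56.3 CPM, then 55.6, 110.1 and 65.2 CPM. In Cav1-null it was 39.9, 47.4 and 25.9 CPM, then 67.0, 68.2 and 76.4 CPM, then 93.4, 87.0 and 92.7 CPM. From d12 to d17 the rise was 1.62 in AKR/J (adjusted p = 8.63e-06), 1.40 in C57BL/6J (adjusted p = 0.00855) and 1.28 in Cav1-null (adjusted p = 0.000105) on the log2 scale. AKR/J against C57BL/6J was 0.24 (SE 0.15, adjusted p = 0.198) on the mean over days, and their libraries overlapped on each day. It was 0.42 (adjusted p = 0.0174) without C57BL/6J d12 replicate 1 and 0.41 (adjusted p = 0.0203) without C57BL/6J d17 replicate 2. Cav1-null against C57BL/6J was 0.34 (SE 0.16, adjusted p = 0.103). It was called without either of those libraries (0.45, adjusted p = 0.0198, and 0.46, adjusted p = 0.0189) or without Cav1-null d12 replicate 3 (0.41, adjusted p = 0.0423), with library sizes alone (0.44, adjusted p = 0.0352), with at least 10 reads in every library (0.39, adjusted p = 0.0486) and without d12 (0.37, adjusted p = 0.0364). AKR/J against Cav1-null was -0.09 (adjusted p = 0.517). With AKR/J on d15 and d17 set against the other strain on d12 and d15, Gabra2 was called in AKR/J against both, at 0.97 (adjusted p = 0.000787) against C57BL/6J and, with the sign turned, 0.60 (adjusted p = 0.00169) against Cav1-null.

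Some junctions of Gabra2 moved apart from its total, which was 0.24 in AKR/J against C57BL/6J and -0.09 against Cav1-null. Others stayed near it, with 0.23 and -0.12 for the junction of exons 9 and 10 and 0.29 and 0.17 for that of exons 1 and 2. The sequence of the junction of exons 5 and 6 (5:71170127-71171758) is given since this junction was higher in AKR/J while the gene total was not, with exon 5 in lower case and exon 6 in capitals.
Gabra2 exon 5 to exon 6: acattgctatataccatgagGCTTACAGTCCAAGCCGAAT
In AKR/J it held 35, 25 and 16 reads on d12, 83, 62 and 57 on d15, and 106, 80 and 90 on d17. In C57BL/6J it held 29, 5 and 5, then 51, 26 and 49, then 27, 25 and 18 reads. In Cav1-null it held 13, 32 and 4, then 25, 14 and 16, then 19, 27 and 28 reads. AKR/J was the highest on d15 and d17, with no overlap, and overlapped with both others on d12. The log2 fold change was 1.40 (adjusted p = 0.00590) against C57BL/6J and 1.56 (adjusted p = 0.00753) against Cav1-null. Leaving out a replicate number ended the first call without number 2 (adjusted p = 0.0610) or 3 (0.0721) and the second without number 1 (0.205) or 3 (0.0510). The junction made 32.6% ± 8.64 of Gabra2 junction reads in AKR/J, 16.01% ± 7.59 for C57BL/6J and 11.7% ± 4.38 for Cav1-null (SD, n = 9). AKR/J differed from both (exact permutation test, adjusted p = 0.00413 and 0.00165). The difference in share from C57BL/6J was not called without number 2 (exact permutation test, adjusted p = 0.0917).

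The junction of Gabra2 exons 3 and 4 held 28 reads in all in AKR/J, with 0 in 7 of 9 libraries, against 202 reads in C57BL/6J with 0 in 3 libraries and 219 in Cav1-null with 0 in 2. The AKR/J zeros were in d12 replicate 2 and in all 6 libraries of d15 and d17, while both other strains also had zeros beside libraries with 20 reads or more. Its log2 fold change was -4.91 (adjusted p = 0.0399) in AKR/J against C57BL/6J, not called when any replicate number was left out (0.139 to 1), with a replicate block (0.0906) or when scaled by the junction table itself (0.0619), and -5.34 (adjusted p = 0.0522) against Cav1-null. Its share of Gabra2 junction reads was 3.71% ± 7.61 in AKR/J, 16.3% ± 13.2 for C57BL/6J and 15.3% ± 9.06 for Cav1-null (SD, n = 9). AKR/J differed in it from Cav1-null (exact permutation test, adjusted p = 0.0147), which was lost without replicate number 1 (0.0833), 2 (0.0917) or 3 (0.183), while the difference from C57BL/6J did not pass (adjusted p = 0.0688). In the junctions of the 7 genes, a 0 in 1 library with at least 10 reads in both other libraries of its group was found in 16 of 216 sets of 3 libraries (7.41%), beside 6.64% over all junctions. A 0 in 1 library alone is therefore no sign that a junction was absent. The zeros of the Nnt and Wdfy1 junctions ran through all 9 AKR/J libraries.

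Over the tested junctions of the genes, 9 of 21 were called for AKR/J against C57BL/6J (27.7% of all junctions), 3 of 22 for Cav1-null against C57BL/6J (21.6%) and 10 of 22 for AKR/J against Cav1-null (6.88%). The junctions of a gene share its reads and are not independent. The median log2 fold change of all junctions was -0.33, -0.22 and -0.06 in these comparisons, and junction fold changes should be read relative to it. Scaled by the junction table itself, those medians were -0.04, 0.02 and -0.01.

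**Figure D4:**
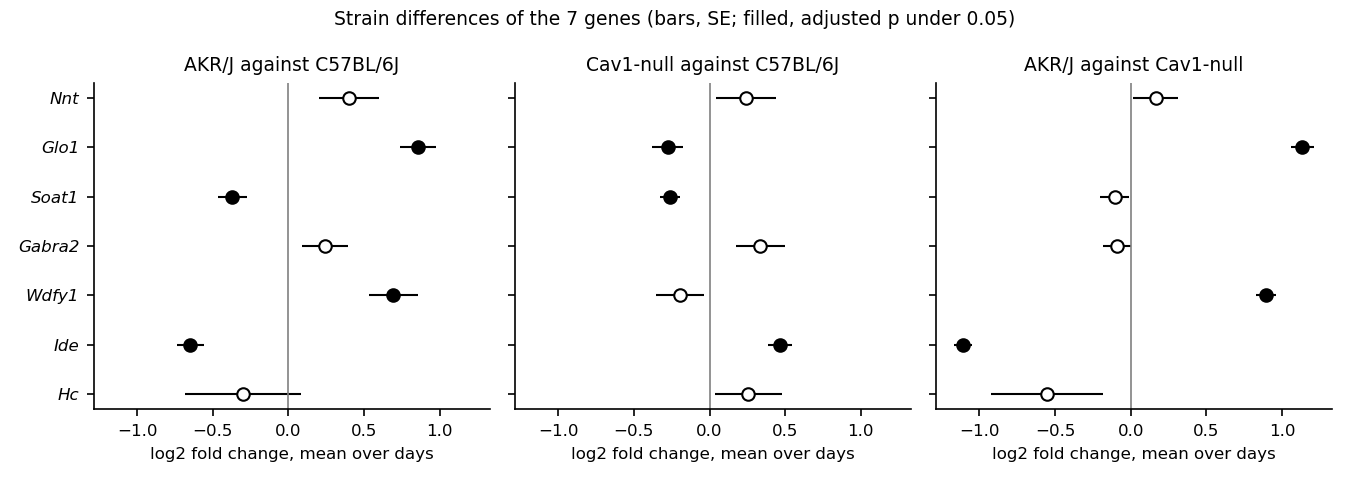
Log2 fold change (horizontal axis) of the 7 genes in the 3 strain comparisons, as the mean of the 3 day differences. Bars are SE of the fit, and filled points are genes with adjusted p under 0.05. Glo1, Wdfy1 and Ide are called in both comparisons with AKR/J, and Nnt, Gabra2 and Hc in none.

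Hc (2:34873343-34951453, minus strand), the complement C5 gene, was near the limit of detection in fetal brain. It held 9, 2 and 12 reads in AKR/J on d12, 5, 24 and 5 on d15, and 14, 13 and 14 on d17. In C57BL/6J it held 15, 15 and 10, then 15, 8 and 8, then 33, 24 and 22 reads. In Cav1-null it held 8, 14 and 13, then 22, 16 and 27, then 20, 25 and 17 reads. All 27 libraries held reads, at 0.0659 to 1.09 CPM, and AKR/J lay below both other strains on d17 only. Its mean differences were -0.30 (SE 0.38, adjusted p = 0.548), 0.26 (adjusted p = 0.364) and -0.55 (adjusted p = 0.281) for AKR/J against C57BL/6J, Cav1-null against C57BL/6J and AKR/J against Cav1-null. Without AKR/J d15 replicate 2, the library with 24 reads, the first was -0.62 (adjusted p = 0.176) and the third -0.94 (adjusted p = 0.0580), and without AKR/J d12 replicate 2, with 2 reads, they were -0.13 and -0.39. Hc was called for Cav1-null against C57BL/6J on d15 alone (1.32, SE 0.39, adjusted p = 0.0137), a call lost without C57BL/6J d15 replicate 2 (0.0508) or 3 (0.0524) or Cav1-null d15 replicate 3 (0.0606), without a filter on low counts (0.0535) and in the model of all 27 libraries (0.0781). As a mean over the days, no difference of Hc between strains was detectable at this depth.

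By single day, 2 of 7 genes were called for AKR/J against C57BL/6J on d12 (44.1% of all genes) and 2 on d15 (14.6%). On d17 edgeR called 0 and DESeq2 1 of 7, with 3 at an unadjusted p under 0.05, where 0.948% of all genes were called. For AKR/J against Cav1-null it was the same 3 genes, Glo1, Wdfy1 and Ide, on each day, beside 37.2%, 8.94% and 3.26% of all genes. For Cav1-null against C57BL/6J, edgeR and DESeq2 both called 0 of 7 on d12 (9.24%), with 0 at an unadjusted p under 0.05. There, Soat1, Ide and Hc were called on d15 (39.9%) and Ide on d17 (0.0224%). The d15 value of Soat1 was -0.43, and -0.22 (adjusted p = 0.155) with library sizes alone. Over the days within a strain, 5 of 7 changed in AKR/J from d12 to d17 (47.9% of all genes), 2 in C57BL/6J (35%) and 4 in Cav1-null (46.5%). From d12 to d15 it was 3 (37.2%), 1 (10%) and 4 (26.5%) of 7, and from d15 to d17 it was 1 gene in each strain (6.03%, 10% and 15.3%), namely Gabra2 for AKR/J, Hc for C57BL/6J and Ide for Cav1-null. Several of these calls were lost with 1 library left out or under another setting. The fall of Glo1 in AKR/J from d12 to d17 (-0.46, adjusted p = 0.0401) was lost with library sizes alone (-0.033, adjusted p = 0.875), without a filter (0.109), with a replicate block (0.0619) and without any 1 of 8 of the 9 libraries (0.0586 to 0.137). From d12 to d15 it was lost with library sizes alone (0.769) and without any 1 of 5 libraries (0.0563 to 0.0763). The fall of Ide in C57BL/6J from d12 to d15 (-0.68, adjusted p = 0.0403) was lost with a replicate block (0.0988), without a filter (0.0509) and without any 1 of 6 libraries (0.0782 to 0.165). In Cav1-null, the fall of Soat1 from d12 to d17 was lost without any 1 of 5 libraries (0.0531 to 0.143), in DESeq2 (0.0539), with library sizes alone (0.0675), without a filter (0.0737), with at least 10 reads in every library (0.0602) and in the model of all 27 libraries (0.142). The rise of Wdfy1 from d12 to d15 was lost without any 1 of 5 libraries (0.0746 to 0.113), with a replicate block (0.0630) and in the 27-library model (0.424). The fall of Glo1 was lost without d15 replicate 3 for d15 (0.0519), without d17 replicate 1 for d17 (0.0559), and for both days in that model (0.218 and 0.154), as was the fall of Ide to d15 (0.0843). The d15 to d17 change of Gabra2 was lost without AKR/J d17 replicate 2 (adjusted p = 0.0551) or 3 (0.0600) and with library sizes alone (0.0911). The call of Hc was lost without any 1 of 8 of the 9 libraries (0.0589 to 0.161), without a filter (0.0969), with a replicate block (0.0748) and in the model of all 27 libraries (0.0656). That of Ide was lost without any 1 of the 6 libraries of d15 and d17 (0.0593 to 0.105), without a filter (0.0512) and in that model (0.246). For the change of the strain difference from d12 to d17, edgeR called 0 of 7 in Cav1-null against C57BL/6J (0.00449% of all genes) and DESeq2 called 0, with 1 at an unadjusted p under 0.05.

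The pathways around the 7 genes were read from lists of related genes, whose counts stand beside 47.7%, 45% and 30.3% of all genes called in the 3 comparisons. Among genes of cholesterol esterification, storage and export, 12 of 16 were called for AKR/J against C57BL/6J, 11 of them lower, with a median log2 fold change of -0.33 beside 0.01 for all genes. They included the exporters Abcg1 (-1.03, adjusted p = 0.000105) and Abca1 (-0.84, adjusted p = 0.000489) and the lipid carrier Apoe (-0.79, adjusted p = 0.000152). In Cav1-null against C57BL/6J, 11 of 15 were called, all 11 lower (median -0.39), and in AKR/J against Cav1-null 2 of 15, where Abcg1, Abca1 and Apoe were at -0.23, -0.045 and -0.21 (adjusted p = 0.127, 0.763 and 0.229). Among peptidases and substrates around Ide, 9 of 15 were called, 9 lower, in AKR/J against C57BL/6J (median -0.70). App, the amyloid precursor, was at -1.39 (adjusted p = 0.000164), the peptidase Ace at -1.87 (adjusted p = 8.08e-05) the peptidase Prep at -0.89 (adjusted p = 0.000523) and the insulin receptor Insr at -0.56 (adjusted p = 0.000240). Against Cav1-null only Ace of these 4 was called in AKR/J (-0.97, adjusted p = 0.00291), with App, Prep and Insr at -0.11, 0.039 and -0.045 (adjusted p = 0.421, 0.792 and 0.640). In Cav1-null it was 11 of 14, 10 lower and 1 higher (median -0.67), and between AKR/J and Cav1-null 3 of 15. The neuronal, erythroid and blood vessel sums of d15 given above also set C57BL/6J apart, and their part in these lists was not tested. For both lists, the counts against C57BL/6J were thus higher than those between the other strains, a difference that was not tested.

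GABA-A receptor subunits and anchors were lower in AKR/J than in Cav1-null for 12 of the 13 called among 17, with a median of -0.62. These included the subunits Gabra5 (-1.11, adjusted p = 6.50e-06), Gabrb1 (-0.95, adjusted p = 6.80e-08) and Gabra3 (-0.87, adjusted p = 2.31e-08), while the value of Gabra2 was -0.09. Against C57BL/6J, 10 of 17 were called in AKR/J, 9 lower and 1 higher (median -0.38), and 12 of 17 in Cav1-null, 10 higher and 2 lower (median 0.38). The subunit Gabrg3 was at -0.87 (adjusted p = 0.00285) in AKR/J, the adhesion protein gene Nlgn2 at -0.86 (adjusted p = 0.000190) and the trafficking gene Gabarap at 0.75 (adjusted p = 0.00136). Against Cav1-null, Gabrg3 was called (-1.12, adjusted p = 1.27e-05), and Nlgn2 and Gabarap were at 0.040 and 0.37 (adjusted p = 0.808 and 0.0900). Neuronal markers were also lower in AKR/J on d12, on d15 against C57BL/6J and on d17 against Cav1-null, as given above, and their part in these counts was not tested. Beside Gabra2 on chromosome 5, Gabrg1 was higher in Cav1-null than in C57BL/6J (0.72, adjusted p = 0.00137) and so was Gabra4 (0.39, adjusted p = 0.0307). Gabra2 was most like Kctd4 (r = 0.95), Sntg1 (r = 0.95) and A230103L15Rik (r = 0.94) over the libraries.

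In the list of mitochondrial NADPH and redox genes around Nnt, 10 of 18 were called in AKR/J against C57BL/6J, 5 higher and 5 lower. The glutathione peroxidases Gpx1 (1.40, adjusted p = 4.81e-05) and Gpx4 (1.12, adjusted p = 7.21e-05) were higher, as was Mthfd2l, a mitochondrial folate enzyme (0.67, adjusted p = 0.000330), and Idh2, a mitochondrial NADPH source, was lower (-0.20, adjusted p = 0.0156). It was 10 of 18 in Cav1-null against C57BL/6J, 4 higher and 6 lower, and 7 of 18 between AKR/J and Cav1-null, 4 higher and 3 lower. In the last of these Gpx1 (1.02, adjusted p = 0.000181) and Gpx4 (0.56, adjusted p = 0.00774) were called, and Mthfd2l and Idh2 were at 0.23 and 0.11 (adjusted p = 0.132 and 0.177). Gpx1 is abundant in red cells, and the erythroid markers of AKR/J d12 libraries given above moved with it, and their part in this value was not tested. Of the methylglyoxal genes around Glo1, 4 of 12, 5 of 12 and 4 of 12 were called. Hagh, the enzyme after Glo1 in that pathway, was at 0.08, 0.11 and -0.02 (adjusted p = 0.419, 0.207 and 0.834), and Esd, which hydrolyses S-formylglutathione, was higher in AKR/J than in C57BL/6J (0.80, adjusted p = 7.05e-05). Akr1b8, an aldo-keto reductase, was also higher (0.68, adjusted p = 0.0188), and the aldehyde dehydrogenase Aldh2 was lower (-0.88, adjusted p = 0.000183). Against Cav1-null, Esd (0.36, adjusted p = 0.0103) and Akr1b8 (0.64, adjusted p = 0.00931) were called in AKR/J, and Aldh2 was at 0.024 (adjusted p = 0.863).

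Of the FYVE, BEACH and Toll-like receptor genes around Wdfy1, 9 of 16, 11 of 16 and 4 of 16 were called in AKR/J against C57BL/6J, Cav1-null against C57BL/6J and AKR/J against Cav1-null. The autophagy adaptor Wdfy3 (-0.88, adjusted p = 7.05e-05) and the BEACH protein genes Nbea (-0.99, adjusted p = 0.000137) and Wdfy4 (-0.76, adjusted p = 0.0351) were lower in AKR/J than in C57BL/6J, while the receptor Tlr4 (0.75, adjusted p = 0.00781) and the adaptor Ticam2 (0.72, adjusted p = 0.0231) were higher, and of the 9 called 4 were higher and 5 lower. Tlr3, the receptor for double-stranded RNA, was at 0.13 (adjusted p = 0.573). Against Cav1-null, Nbea (-0.31, adjusted p = 0.0175) and Ticam2 (0.90, adjusted p = 0.0293) were called in AKR/J, and Wdfy3, Wdfy4 and Tlr4 were at -0.11, 0.22 and 0.23 (adjusted p = 0.341, 0.610 and 0.408). Beside Wdfy1 on chromosome 1, Scg2, a granin (-0.99, adjusted p = 0.00130), and Serpine2, a protease inhibitor (-0.62, adjusted p = 0.00701), were lower in AKR/J than in C57BL/6J, and Gm37902 was higher (0.71, adjusted p = 0.00750). Wdfy1 was most like Pcdhb6 (r = 0.84), 1700016C15Rik (r = 0.83) and Gm3435 (r = 0.83).

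Of 26 complement genes, 19 were tested, and 5, 3 and 5 were called in these comparisons. Cd59a, an inhibitor of the membrane attack complex, was higher in AKR/J than in both other strains, at 57.8 CPM in AKR/J, 7.77 CPM in C57BL/6J and 4.64 CPM in Cav1-null as means, with a log2 fold change of 2.04 (adjusted p = 1.62e-05) against C57BL/6J and 2.79 (adjusted p = 8.70e-07) against Cav1-null. The erythroid markers given above were also higher in AKR/J on d12, and their part in the Cd59a values was not tested. C4b was higher in AKR/J than in Cav1-null (3.59, adjusted p = 0.000190) at means of 1.30 and 0.221 CPM. Clu, a complement inhibitor and lipid carrier, was lower in AKR/J than in C57BL/6J (-1.32, adjusted p = 5.50e-05) and Cav1-null (-0.58, adjusted p = 3.40e-05). Near Hc on chromosome 2, Dab2ip was lower in AKR/J (-0.995, adjusted p = 4.10e-05) and Gsn, the actin-severing protein gelsolin, was lower in Cav1-null (-1.47, adjusted p = 0.00374), both against C57BL/6J. Glo1-ps, which also lies there, was lower in Cav1-null (-3.35, adjusted p = 0.000671), and Gm13408 was higher in AKR/J (1.87, adjusted p = 0.0166) at means of 0.280 and 0.0696 CPM. Hc was most like Gm45178 (r = 0.80), Gm42480 (r = 0.77) and Gm45179 (r = 0.77), over libraries with 2 to 33 reads of Hc.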

How the data were processed

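Whole fetal brain of 3 strains on 3 days, 3 libraries each, was sequenced from poly-A RNA. Per the labels and the study's methods, the authors checked and trimmed reads (FastQC, cutadapt, fastp), mapped them with STAR to GRCm39 and deposited raw read counts per gene and per annotated splice junction of a transcript. Junction reads were counted by STAR in 2 passes over all samples, and junctions with multi-mapped reads, short overhangs or few reads in all samples were removed by the authors. The versions, the tool that counted genes and its strand setting were not given in the sources used here, so overlapping genes cannot be separated by strand. Reads from near-identical copies may be split, and a 0 in the junction table may also come from the authors' filters.

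From the deposited counts, each pair of strains was fitted in edgeR 4.0.16 (R 4.3.3) with filterByExpr, TMM, 6 groups of strain and day and a robust quasi-likelihood fit. The mean of the 3 day differences was the main contrast. Adjusted p-values are Benjamini-Hochberg over all genes or junctions tested, with a threshold of 0.05. The biological coefficient of variation was 24.5% to 29.1%. Each junction was counted once over its transcripts and scaled by the sizes of the gene table. Shares of junction reads used an exact two-sided permutation test within days, in libraries with at least 10 junction reads of the gene. Likeness was Pearson's r of log2(CPM + 1) over 27 libraries, with the 3 highest genes named. Of neighbours within 500 kb, up to 4 per gene were named, those with the largest absolute log2 fold change among the ones called against C57BL/6J. Of each function list, the 3 called genes with the largest change in AKR/J against C57BL/6J were named. Junctions were named where called. Dnah8, Idh2, Hagh, Insr, Gabra3, Gabra5, Gabrb1, Tlr3, Tlr4, Ticam2 and the Nnt junction of exons 5 and 6 were named after their values were seen. Sequences were read from GRCm39 with GENCODE vM39. Python 3.11.15, numpy 2.4.6, scipy 1.17.1, pandas 2.3.3 and matplotlib 3.10.9 were used.

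The fit was tested on simulated data for AKR/J against C57BL/6J, with 200 changed features and 1 dispersion for all. It recovered 17.9% of 1.5-fold, 73.1% of 2-fold and 92.4% of 4-fold changes among 22353 genes. Among 45528 junctions it recovered 0% of 2-fold and 13.6% of 4-fold changes. In the real data 47.7% of genes and 27.7% of junctions were called, so these rates need not hold for the tests above. Alternatives were RLE factors, library sizes alone, other count filters, DESeq2 1.42.0, a replicate block, 1 model of all libraries, days shifted by 1 stage and each library left out. The fit without d12 and the check of strain-separating genes were added after seeing the data. The 7 genes, the lists around them and the tests were chosen with earlier results of these data known.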

Additional observations from a re-analysis of the deposited data

Results flagged for a closer look

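In 2 results the strain difference itself changed from d12 to d17, by a test of that change. The difference of Ide between AKR/J and C57BL/6J moved by 1.03 on the log2 scale (SE 0.21, edgeR quasi-likelihood test, adjusted p = 0.0171). The mean of Ide was 37.4, 44.9 and 44.5 CPM on d12, d15 and d17 in AKR/J and 92.0, 59.2 and 53.3 CPM in C57BL/6J, with 3 libraries each. The difference of Wdfy1 between AKR/J and Cav1-null moved by 0.75 (SE 0.16, adjusted p = 0.00419). Its mean was 44.3, 104 and 102 CPM in AKR/J and 35.3, 44.4 and 46.8 CPM in Cav1-null. Both start from AKR/J libraries of d12, where the erythroid markers summed to 33231 to 197968 CPM. Their part in these changes was not tested.

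For the same change of Ide between Cav1-null and C57BL/6J, the value was 0.73 (adjusted p = 0.567), where 1 of 22282 genes was called.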

How the results depend on the processing

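Across settings other than leaving a library out, 892 of 1013 values kept their direction and their side of the threshold, 44 lost a call, 5 gained one, 67 counts or values moved and 5 changed sign. The calls of Glo1, Wdfy1 and Ide in AKR/J against both other strains, as means over days, held in every setting and with any library left out. With days shifted by 1 stage, Gabra2 was 0.97 and Hc 0.20 in AKR/J against C57BL/6J, and Gabra2 was 0.60 and Nnt -0.12 in AKR/J against Cav1-null, with 2566 genes called there. Without d12, Nnt was -0.020 in that comparison, and in Cav1-null against C57BL/6J Gabra2 was 0.37 and Glo1 -0.22. With library sizes alone, Wdfy1 in AKR/J against Cav1-null on d12 was -0.042, and in Cav1-null against C57BL/6J Gabra2 was 0.44, Glo1 -0.16 and Soat1 -0.15. That scaling moved the median of all genes in Cav1-null against C57BL/6J from 0.05 to 0.16 and the genes called higher and lower from 4514 and 5519 to 6149 and 4336. In AKR/J against Cav1-null it brought the median to -0.13 and these counts from 3180 and 3690 to 1725 and 4403. For the change of the difference, the split was 1359 and 957 in AKR/J against C57BL/6J, 711 and 1069 with RLE factors and 1539 and 483 with library sizes alone. With at least 10 reads in every library, Nnt was 0.47 in AKR/J against C57BL/6J, and Gabra2 0.39 and Glo1 -0.21 in Cav1-null against C57BL/6J, where Glo1 was -0.25 with RLE factors and also -0.25 in DESeq2. The cause of these changes was not tested.

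Genes called for the change of the difference numbered 2316 in AKR/J against C57BL/6J, 1295 without a filter and 4436 in the model of 27 libraries, and 1 in Cav1-null against C57BL/6J, 30 in DESeq2, 0 with at least 10 reads and 0 in the model of 27 libraries. Junctions called numbered 23150, 15063 and 7557 when each table row was kept, against 12599, 9682 and 3035, and 6878 by DESeq2 in AKR/J against Cav1-null.

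With each library left out, Gabra2 ranged from 0.20 to 0.42, Nnt from 0.31 to 0.64 and Hc from -0.62 to -0.13 in AKR/J against C57BL/6J, Hc from -0.94 to -0.39, Gabra2 from -0.17 to -0.024 and Nnt from 0.072 to 0.24 in AKR/J against Cav1-null, and Gabra2 from 0.24 to 0.46, Glo1 from -0.32 to -0.21, Wdfy1 from -0.27 to -0.043 and Nnt from 0.14 to 0.43 in Cav1-null against C57BL/6J, where 2 to 5 of the 7 genes were called. The genes called for the change of the difference ranged from 35 (without C57BL/6J d12 replicate 2) to 5955 (without AKR/J d12 replicate 2), from 2142 (without Cav1-null d17 replicate 1) to 7082 (without AKR/J d12 replicate 2), and from 0 to 16 in AKR/J against C57BL/6J, AKR/J against Cav1-null and Cav1-null against C57BL/6J. With a replicate number left out, junctions called ranged from 522 to 9404, 708 to 1646 and 317 to 5663 in the same order, those of the 7 genes from 2 to 7, 6 to 8 and 0 to 1, and shares past the threshold from 0 to 3, 0 to 4 and 0 to 1. Without number 2 no share passed. For the 6 of 33 at the smallest p that 216 assignments allow, this says nothing about stability, while calls that rose above that p are named beside their shares. Without number 1 or 3 shares could pass, and calls of the shares given above that were lost there are named beside them.

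The replicate numbers did not pair the libraries, since no comparison and day had all 3 correlations of same-numbered libraries over 0.1 (range -0.43 to 0.36). With a replicate block, 10424, 9703 and 6415 genes were called in AKR/J against C57BL/6J, Cav1-null against C57BL/6J and AKR/J against Cav1-null, with 4, 3 and 3 of the 7 genes, and Ide in Cav1-null against C57BL/6J on d17 was 0.85 (adjusted p = 0.146).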

Other observations

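The libraries labelled C57BL/6J did not split the same way for each gene. The junction of Soat1 that skips exon 2 was read in d12 replicate 3 and in the 3 libraries of d15. The lowest Glo1 and Dnah8, with 0 reads of Gm10503, were in d12 replicate 3, d15 replicate 3 and d17 replicate 2. The highest Wdfy1 with the fewest reads of its junction was in d12 replicate 3, d15 replicate 1 and d17 replicate 1. The Nnt junction of exons 7 and 9 held 7 to 20 reads in the 3 libraries of d12 and 0 to 5 in those of d15 and d17. These sets were read off after the values were seen and were not tested.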
